A study of Mus musculus with 11 samples.

Results

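Synaptotagmins are membrane-trafficking proteins that carry a pair of C2 domains, folds that bind phospholipids and, in many members, calcium. The 10 genes described here were Syt1, Syt2, Syt4, Syt5, Syt6, Syt7, Syt9, Syt11, Syt13 and Syt17, members of the family with and without calcium binding, taken by gene name from the 38924 genes counted in each RNA-Seq library. The set was chosen by family name, with the counts of these same 4 libraries, and with them the higher level of Syt13 in the mutant, already known. The differences between genotypes in these 10 genes, and whether the fit over all genes called them, are therefore given as a description and support nothing. All 10 were among the 16436 genes that passed the filter on low counts.

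RNA was measured in purified cerebellar granule cell precursors (GCps) of C57Bl/6J mice at postnatal day 7. The cko group (Math1-Cre Chd7 flox/flox, 2 libraries) carried a conditional deletion of the chromatin remodeler Chd7, driven by Math1-Cre, which acts in the granule cell lineage. The control group (2 libraries) was Chd7 flox/+ in the sample labels, while the extraction notes give Chd7 flox/flox without Cre. Both groups thus carried at least 1 floxed allele. Lobules IX and X were removed, cerebella were pooled by genotype, and GCps were enriched on a density gradient. The cko replicates differed in sex (values below), so they did not come from the same animals. For the control replicates this is not stated, and their spread could be technical.

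Total counts lay between 61836588 and 77346481 per library, and 1 count was worth 0.0130 to 0.0166 CPM (counts scaled to library size by TMM, per 1e+06 counts). Chd7 itself had 392 and 355 CPM in cko GCps and 322 and 319 CPM in control GCps, which does not check the deletion, since reads over the whole gene were counted. Granule precursor markers summed to 5490 and 5612 CPM in cko GCps and 5014 and 5189 CPM in control GCps, and Atoh1, Gli1, Zic1 and Barhl1 were detected in all libraries. The 9 markers did not move together. Their log2 fold change (cko over control) was above 0 in 6 and below 0 in 3, Zic1, Zic2 and Pax6. The cko replicate 1 library stood apart in sex, with 793 CPM of Xist and 0 CPM of Ddx3y, against 0.114 CPM of Xist and 68.2 CPM of Ddx3y in cko replicate 2 and 0.548 and 0.182 CPM of Xist and 69.1 and 63.7 CPM of Ddx3y in the control libraries.

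At a nerve terminal, synaptotagmins sit on synaptic or dense-core vesicles and act beside the SNARE proteins, the machinery that fuses vesicles with the plasma membrane. Calcium binds between loops at the tip of each C2 domain, where a set of aspartates holds the ions. Syt1 is the main fast calcium sensor of synchronous transmitter release in forebrain neurons, Syt2 has that role at hindbrain and neuromuscular synapses, and Syt7 is a slower sensor of high affinity that serves asynchronous release. Syt4, Syt11, Syt13 and Syt17 lack part of the calcium-binding aspartates.

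The difference between the members can be read in their coding sequence. Aligned with the 10 codons that encode the calcium-binding aspartates of Syt1, 5 in each C2 domain, Syt1 and Syt7 had an aspartate codon at 10 of 10 positions. Syt2, Syt5, Syt6 and Syt9 had one at 9 of 10, Syt4 and Syt11 at 7, Syt17 at 5 and Syt13 at 4. This count takes in aspartate codons only. Where Syt2, Syt5, Syt6 and Syt9 lacked one, at codon 371 of Syt1, they had a glutamate codon (GAA or GAG). Syt4 and Syt11 also had a glutamate codon there, while Syt13 had a cysteine codon (TGC). Loop 3 of the first C2 domain (C2A), which binds calcium, is printed for 5 genes to show that contrast, 5′ to 3′ on the coding strand, with capitals marking the 3 codons aligned with the aspartates of Syt1. They are taken from GENCODE M21 transcripts on GRCm38, each lies in 1 coding exon, and the positions run with Syt1 on the minus strand at chr10:108627343-108627375, Syt9 on the plus strand at chr7:107436699-107436731, Syt11 on the minus strand at chr3:88761816-88761848, Syt13 on the plus strand at chr2:92946099-92946131 and Syt17 on the minus strand at chr7:118433917-118433949.
Syt1: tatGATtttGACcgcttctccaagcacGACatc
Syt9: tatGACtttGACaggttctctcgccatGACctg
Syt11: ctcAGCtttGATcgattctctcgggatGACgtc
Syt13: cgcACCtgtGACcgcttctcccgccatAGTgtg
Syt17: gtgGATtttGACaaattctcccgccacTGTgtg
GAT and GAC encode aspartate. All 3 capital codons encode it in Syt1 and Syt9. Syt11 has a serine codon (AGC) at the first position, Syt13 has a threonine codon (ACC) at the first and a serine codon (AGT) at the last, and Syt17 has a cysteine codon (TGT) at the last. In the corresponding loop of the second C2 domain (C2B), Syt13 has no aspartate codon at the aligned positions, at chr2:92953521-92953553 on the plus strand.
Syt13, C2B: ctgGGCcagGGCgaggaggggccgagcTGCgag
These sequences are a property of the genes and were not measured in these libraries. The set was taken to hold members with and without calcium binding, so this contrast was part of the choice.

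Among the 10 members, 1 was called higher in cko GCps (Syt13) and 0 were called lower by edgeR's quasi-likelihood test with Benjamini-Hochberg adjustment over all tested genes at 0.05. Across all tested genes 0.809% were called higher and 0.773% lower, 1.58% in either direction. Without adjustment, 2 members would have passed 0.05 as lower and 3 as higher, and DESeq2 called 1 lower (Syt1) and 1 higher (Syt13). Over all genes DESeq2 called 458 higher and 433 lower, 5.60% of those to which it gave an adjusted p. The share of all genes with an unadjusted p under 0.05 is not given here. Counts at that threshold, for the members and for the lists below, therefore have no background beside them. Both cko libraries lay above both control libraries for 4 members (Syt2, Syt4, Syt13, Syt17) and below them for 4 (Syt1, Syt5, Syt9, Syt11). Of all tested genes, 22.7% lay above and 21.2% below in this way, 43.9% in either direction. The median log2 fold change was 0.10 over the members and -0.00056 over all tested genes. Since the contrast was known when the members were picked, nothing is read from these shares.

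**Figure D1:**
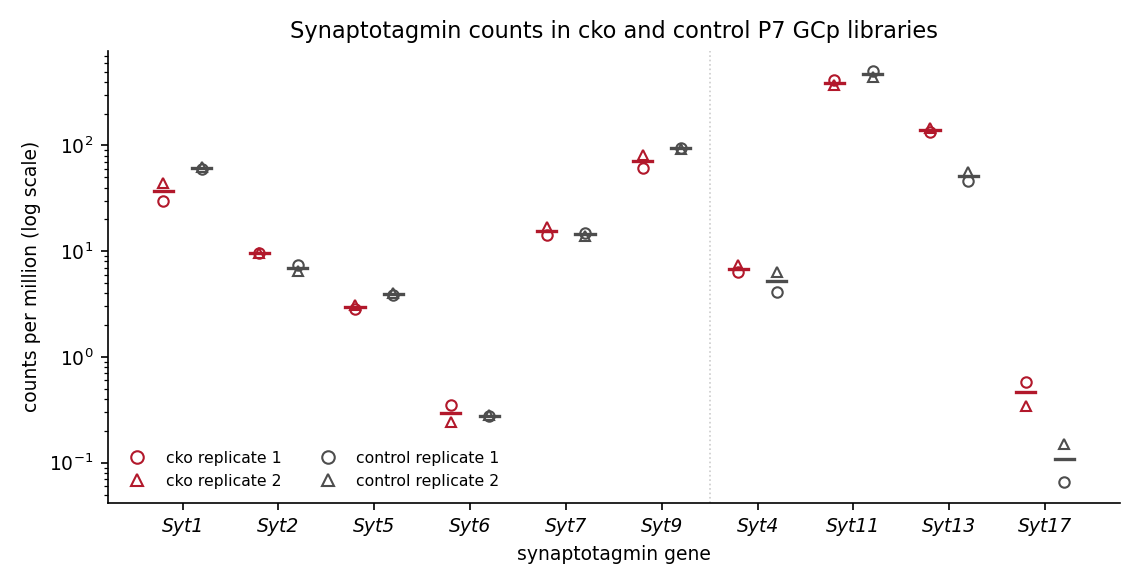
CPM of each of the 10 synaptotagmin genes in cko (left) and control (right) libraries, 1 point per library, with the vertical axis on a log scale. Syt13 has 134 and 146 CPM in cko libraries and 45.7 and 56.4 CPM in control libraries, while the points of Syt6 and Syt7 overlap.

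Syt13 (ENSMUSG00000027220, GRCm38 chr2:92915098-92956058, plus strand) had 134 and 146 CPM in cko GCps and 45.7 and 56.4 CPM in control GCps. The groups did not overlap, and the lower cko library was above the higher control library by more than the difference between the replicates of either genotype. The mean was 139.9 ± 8.35 CPM in cko and 51.1 ± 7.63 CPM in control GCps (SD, n = 2), and the fitted log2 fold change was 1.45 ± 0.13 (SE), a 2.74-fold difference. Syt13 is an atypical synaptotagmin, known in the mouse from precursors of the pancreatic endocrine cells. Over the 9 alternative settings its log2 fold change lay between 1.31 and 1.62, which describes the same counts that were known when the gene was chosen. Without cko replicate 1, the library that differs in sex, it was 1.52. In bulk libraries, more RNA of a gene per cell and more cells that express it cannot be told apart, and this holds for all values below.

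Syt17, also called B/K protein, has C2 domains without the transmembrane segment of the other members. It had 0.584 and 0.341 CPM in cko GCps and 0.0653 and 0.149 CPM in control GCps, which is 45 and 21 counts in cko libraries and 5 and 9 counts in control libraries. The groups did not overlap, but at so few counts the exact Poisson 95% intervals, which cover counting error only, ran between 32.8 and 60.2 and between 13.0 and 32.1 counts in cko libraries, and between 1.62 and 11.7 and between 4.12 and 17.1 counts in control libraries. The log2 fold change was 2.14 ± 0.55 and was not called. It was 1.63 without control replicate 1 and 2.80 without control replicate 2, not called in either, and Syt17 was called higher in 1 of the 9 alternatives, without the filter on low counts.

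Syt1 had 29.6 and 44.0 CPM in cko GCps and 60.1 and 62.0 CPM in control GCps. Both cko libraries were below both control libraries, and cko replicate 1 was the lowest. The mean was 36.8 ± 10.1 CPM in cko and 61.0 ± 1.40 CPM in control GCps (SD, n = 2), with a log2 fold change of -0.73 ± 0.19 that was not called. Leaving out cko replicate 2 gave -1.04, which was called, and leaving out cko replicate 1 gave -0.46, which was not. The postmitotic granule markers, genes of neurons that have left the precursor state, summed to 3777 and 4662 CPM in cko GCps and 5629 and 5143 CPM in control GCps, with cko replicate 1 lowest here too. Of the 8 postmitotic markers tested, 7 had a log2 fold change below 0, 0 were called by edgeR, 6 had an unadjusted p under 0.05, 5 of them lower in cko, and DESeq2 called 4, 3 of them lower. The exception was Grin2c, an NMDA receptor subunit of mature granule cells, with 23.0 and 15.5 CPM in cko GCps and 1.10 and 2.59 CPM in control GCps (log2 fold change 3.40 ± 0.48, edgeR adjusted p = 0.0566). Gabra6, another marker of mature granule cells, was at 0 and 0.0163 CPM in cko GCps and 0.104 and 0 CPM in control GCps. Of the 9 granule precursor markers tested, 0 were called by edgeR, and DESeq2 called 1 higher and 0 lower. With an unadjusted p under 0.05, 2 of them were higher and 1 lower. The part of cell makeup in the values of Syt1 was not tested.

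Syt2 had 9.67 and 9.71 CPM in cko GCps and 7.44 and 6.46 CPM in control GCps, and was not called (log2 fold change 0.48 ± 0.16). The order was the reverse of that of Syt1, its close relative in role: the ratio of Syt1 to Syt2, as CPM per kilobase of exon, was 2.81 and 4.15 in cko GCps and 7.39 and 8.79 in control GCps. Syt9 had 60.9 and 80.9 CPM in cko GCps and 95.4 and 93.3 CPM in control GCps, again with cko replicate 1 lowest (-0.41 ± 0.14, not called). The value was -0.21 without cko replicate 1, not called, and -0.63 without cko replicate 2, called. Syt5 had 2.87 and 3.11 CPM in cko GCps and 3.85 and 4.01 CPM in control GCps (-0.40 ± 0.19, not called). The names of Syt5 and Syt9 have been exchanged in the literature, so no role is given to either here.

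Syt7 had 14.2 and 16.8 CPM in cko GCps and 14.9 and 13.9 CPM in control GCps, and the groups overlapped. Syt6, best known from the acrosome of sperm, had 0.350 and 0.244 CPM in cko GCps and 0.274 and 0.282 CPM in control GCps, 15 to 27 counts per library, and the groups overlapped. Neither was called, with log2 fold changes of 0.10 ± 0.14 and 0.11 ± 0.40. At these few counts a modest change in Syt6 was not detectable.

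Syt11, a member that does not depend on calcium and is linked to endocytosis and vesicle traffic, had the highest counts of the family, with 415 and 372 CPM in cko GCps and 503 and 440 CPM in control GCps. Both cko libraries were below both control libraries, but the gap between the nearest libraries was smaller than that between the replicates of either genotype, and the log2 fold change of -0.26 ± 0.12 was not called. Syt4, which acts on dense-core vesicles, had 6.34 and 7.33 CPM in cko GCps and 4.13 and 6.31 CPM in control GCps. The lower cko library and the higher control library were nearly level, and the log2 fold change of 0.39 ± 0.24 was not called. The exons of Syt4, Syt6 and Syt7 overlap by 14.5%, 8.67% and 5.13% of their length with genes on the opposite strand. Whether the counting used strand is not stated, so their values are less certain. The other 7 members have no such overlap.

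**Figure D2:**
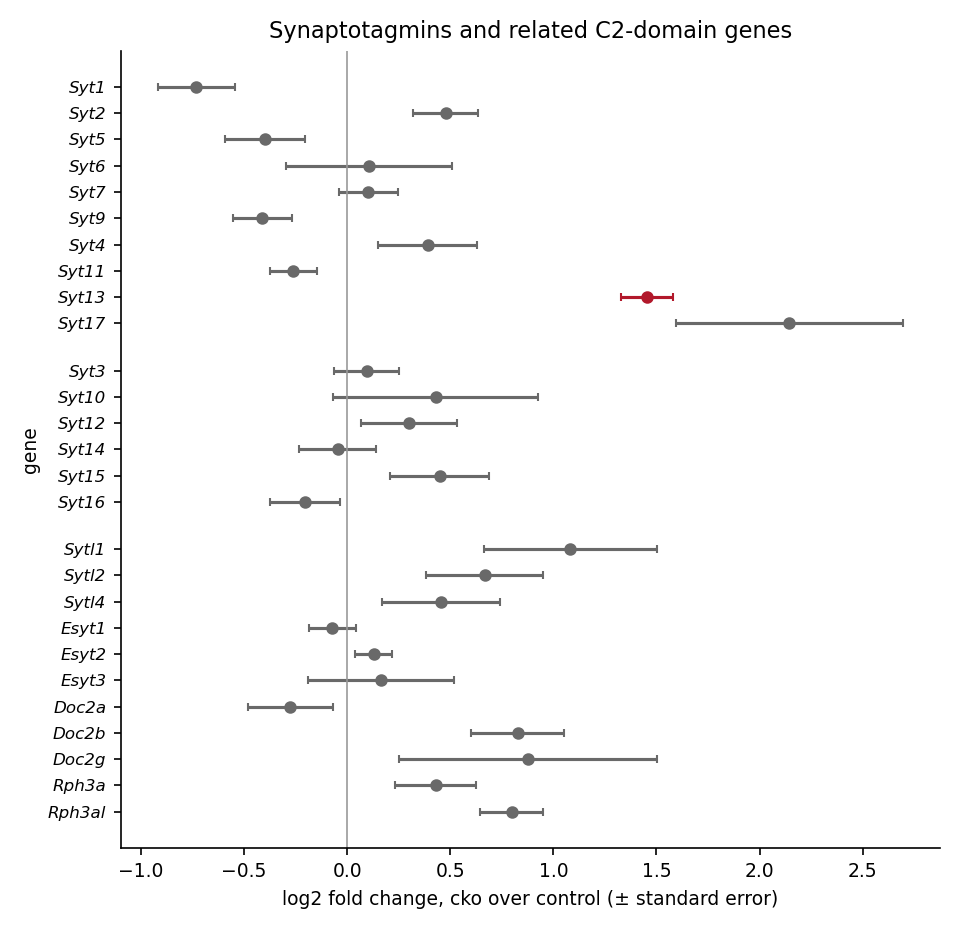
Log2 fold change (cko over control) with its standard error for the 10 members, 6 further synaptotagmins and 11 related genes with double C2 domains, from the edgeR fit on 2 cko and 2 control libraries, red marking a called gene. Syt13 is the 1 called gene of the 27, at 1.45, and Syt1 lies at -0.73.

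Compared per length, as CPM per kilobase of exon, the order of the members differed between the genotypes at ranks 2 and 3 and at ranks 6 to 10. In cko GCps it was Syt11 (75.6 ± 5.74), Syt13 (37.2 ± 2.22), Syt9 (17.8 ± 3.55), Syt1 (4.41 ± 1.21), Syt7 (2.07 ± 0.25), Syt4 (1.76 ± 0.18), Syt2 (1.27 ± 0.0031), Syt5 (1.25 ± 0.0712), Syt17 (0.0889 ± 0.0329) and Syt6 (0.0510 ± 0.0129), each a mean ± SD over 2 libraries. In control GCps it was Syt11 (90.5 ± 8.53), Syt9 (23.7 ± 0.38), Syt13 (13.6 ± 2.03), Syt1 (7.32 ± 0.17), Syt7 (1.93 ± 0.0930), Syt5 (1.65 ± 0.0473), Syt4 (1.34 ± 0.40), Syt2 (0.910 ± 0.0905), Syt6 (0.0477 ± 0.00092) and Syt17 (0.0206 ± 0.0114). Syt13 ranked 2 in cko GCps and 3 in control GCps. Neighbours whose ranges over the libraries overlapped were Syt2 and Syt5 in cko GCps and Syt5 and Syt4 in control GCps. All other neighbours had separate ranges, but Syt17 and Syt6 had few counts. The exact Poisson 95% intervals of Syt17 in cko replicate 2 (0.211 to 0.522 CPM) and Syt6 in cko replicate 1 (0.231 to 0.509 CPM) overlapped. With the longest annotated transcript in place of the exon union, 16 of the 20 ranks stayed the same. Syt7 and Syt5 then changed places in control GCps, and Syt2 and Syt5 in cko GCps.

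The summed level of the 10 members overlapped between the genotypes, at 140.3 and 142.7 in cko GCps and 145.6 and 136.5 in control GCps (CPM per kilobase). Its composition differed. Syt13 made up 25.4% and 27.2% of that sum in cko GCps, against 8.34% and 11.0% in control GCps. The share of Syt11 was 56.8% and 50.1% in cko GCps and 66.3% and 61.9% in control GCps. The share of Syt9 was 10.9% and 14.2% in cko GCps and 16.5% and 17.2% in control GCps. The share of Syt1 was 2.53% and 3.70% in cko GCps and 4.95% and 5.45% in control GCps. The other 6 members together held 4.40% and 4.77% in cko GCps and 3.92% and 4.46% in control GCps. The ratio of Syt13 to Syt9 was 2.33 and 1.91 in cko GCps and 0.506 and 0.640 in control GCps. The shares of a sum are not independent of each other. They restate the counts that were known when the genes were chosen, so they are a description only.

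**Figure D3:**
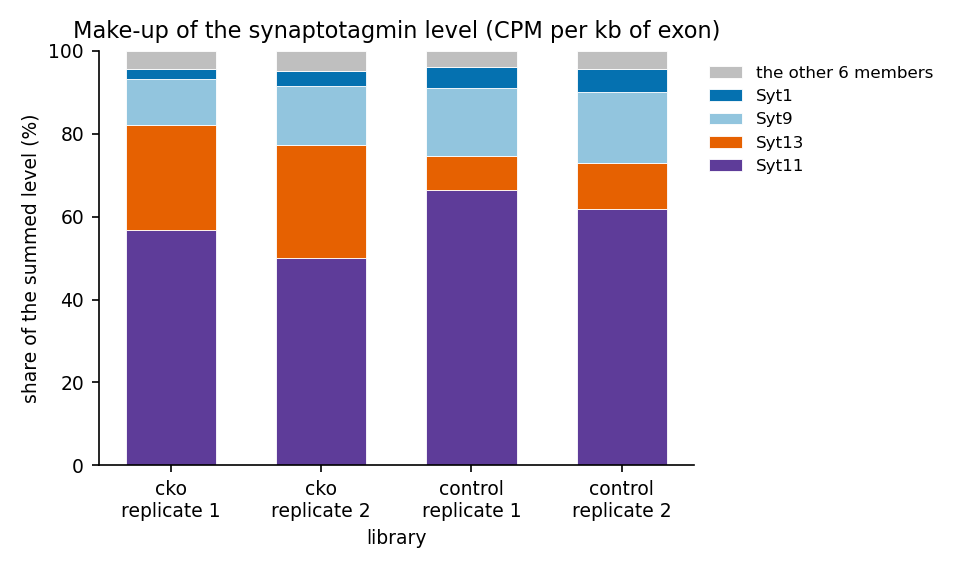
Share of each member in the summed level of the 10 synaptotagmins (CPM per kilobase of exon), 1 stacked bar per library with cko on the left. Syt13 takes 25.4% and 27.2% in cko libraries and 8.34% and 11.0% in control libraries, which restates counts known when the genes were chosen.

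Of the genes closest to Syt13 on chromosome 2, 4631405J19Rik lay 71898 bases after the end of Syt13 and had 4.76 and 5.14 CPM in cko GCps and 2.01 and 2.64 CPM in control GCps. Its log2 fold change was 1.09 ± 0.22 (edgeR adjusted p = 0.0719), and it was called under 3 of the 9 alternatives. Prdm11 lay 9093 bases after Syt13 and had 22.0 and 18.5 CPM in cko GCps and 16.6 and 15.2 CPM in control GCps (0.35 ± 0.14, edgeR adjusted p = 0.339). The 2 are not separate stretches of the chromosome. 4631405J19Rik, on the plus strand, lies within the span of Prdm11, on the minus strand, though their exons do not overlap. On the other side, Chst1 lay 299848 bases before Syt13 and Slc35c1 454560 bases before, with log2 fold changes of 0.06 (edgeR adjusted p = 0.957) and 0.02 (edgeR adjusted p = 0.977). By the smallest Euclidean distance between centred log2 CPM values over the 4 libraries, the genes most like Syt13 were Jade2 (0.0526), E130311K13Rik (0.123) and Loxl1 (0.150), with log2 fold changes of 1.44, 1.41 and 1.35. They were picked for this likeness, which says nothing of shared function. All 3 were called, Jade2 (lost without either control replicate) and E130311K13Rik (called in 3 of the 9 alternatives) less stably than Loxl1 (called in all 9). Jade2 had 4.71 and 5.14 CPM in cko GCps and 1.66 and 1.97 CPM in control GCps, and Loxl1 had 74.1 and 73.8 CPM in cko GCps and 24.9 and 33.1 CPM in control GCps.

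The family continues beyond the 10 genes. Of 7 further synaptotagmins, 6 were tested and 0 were called (0 with an unadjusted p under 0.05, 0 by DESeq2), with log2 fold changes between -0.20 and 0.45 and a median of 0.20. Syt12, with the highest average CPM of them (not corrected for length), had 11.0 and 8.93 CPM in cko GCps and 9.70 and 6.43 CPM in control GCps (0.30 ± 0.23, edgeR adjusted p = 0.678), and 17.2% of its exons overlap a gene on the other strand. Of 13 related genes with double C2 domains (such as the extended synaptotagmins and the Doc2 and rabphilin genes), 11 were tested and 0 called. With an unadjusted p under 0.05, 3 were higher and 0 lower, and DESeq2 called 2 higher and 0 lower. The log2 fold changes of the 11 lay above 0 in 9 and below 0 in 2, with a median of 0.46. Esyt2, which tethers the endoplasmic reticulum to the plasma membrane, had 86.3 and 91.1 CPM in cko GCps and 79.6 and 82.7 CPM in control GCps (0.13 ± 0.0914, edgeR adjusted p = 0.649).

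The proteins with which synaptotagmins work were examined as 6 lists. Of 14 SNARE genes tested, 0 were called (1 lower with an unadjusted p under 0.05, 1 lower by DESeq2) and the median log2 fold change was -0.03. Vamp2, the vesicle SNARE of synaptic release, had 94.5 and 147.0 CPM in cko GCps and 151 and 163 CPM in control GCps (-0.38 ± 0.21, edgeR adjusted p = 0.555). The value was -0.08 without cko replicate 1, not called, and -0.73 without cko replicate 2, called. Of 21 synaptic vesicle proteins, 0 were called by edgeR, 14 lay below 0 and the median was -0.21. With an unadjusted p under 0.05, 6 were lower and 3 higher, and DESeq2 called 5 lower and 0 higher. Sv2b, a vesicle glycoprotein, had 188 and 196 CPM in cko GCps and 208 and 189 CPM in control GCps (-0.05 ± 0.0986, edgeR adjusted p = 0.908), and the groups overlapped.

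Among 16 tested regulators of SNAREs, 2 fell and 0 rose by edgeR (with an unadjusted p under 0.05, 4 lower and 2 higher, and by DESeq2, 4 lower and 0 higher), with a median log2 fold change of -0.09. Stxbp5l (tomosyn-2), an inhibitor of SNARE complex assembly, had 12.2 and 12.9 CPM in cko GCps and 21.2 and 22.4 CPM in control GCps (-0.79 ± 0.12, edgeR adjusted p = 0.0380). Unc13c, which primes vesicles for release, had 0.856 and 1.09 CPM in cko GCps and 2.69 and 3.20 CPM in control GCps (-1.60 ± 0.25, edgeR adjusted p = 0.0390). Of 13 active zone proteins, with a median of -0.05, 3 were lower and 2 higher with an unadjusted p under 0.05, and DESeq2 called 3 lower and 2 higher. By edgeR 0 rose and 1 fell, Ppfia2 (liprin-alpha-2, a scaffold), with 67.3 and 54.7 CPM in cko GCps and 100.6 and 98.1 CPM in control GCps (-0.70 ± 0.12, edgeR adjusted p = 0.0475), and 24.5% of its exons overlap an opposite-strand gene. Of 19 endocytosis genes, with a median of -0.13, 2 were lower and 1 higher with an unadjusted p under 0.05, and DESeq2 called 2 lower and 0 higher. By edgeR 0 rose and 1 fell, Sh3gl2 (endophilin A1, which bends vesicle membrane), with 101 and 122 CPM in cko GCps and 187 and 204 CPM in control GCps (-0.81 ± 0.12, edgeR adjusted p = 0.0364). Each of these 4 calls was lost in some alternatives. Stxbp5l was lost without cko replicate 1 or either control replicate, Unc13c and Sh3gl2 without cko replicate 1 or control replicate 2 and with non-robust fitting, and Ppfia2 without cko replicate 2 or either control replicate and with non-robust fitting.

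Dense-core vesicles carry neuropeptides, and of 14 genes of that list 3 fell and 0 rose by edgeR, with a median of -0.24. With an unadjusted p under 0.05, 5 were lower and 1 higher, and DESeq2 called 4 lower and 0 higher. Pcsk2, a prohormone convertase that cleaves neuropeptide precursors, had 17.0 and 15.9 CPM in cko GCps and 34.9 and 38.8 CPM in control GCps (-1.17 ± 0.12, edgeR adjusted p = 0.0129). Cadps2, which promotes the exocytosis of dense-core vesicles, had 60.1 and 92.3 CPM in cko GCps and 458 and 427 CPM in control GCps (-2.54 ± 0.22, edgeR adjusted p = 0.0134). Scg2 (secretogranin II, a vesicle cargo protein) had 24.5 and 28.1 CPM in cko GCps and 68.0 and 55.8 CPM in control GCps (-1.24 ± 0.14, edgeR adjusted p = 0.0155), and it was called in all 9 alternatives. Pcsk2 lost its call without control replicate 2 and Cadps2 with the replicate number as a block (edgeR adjusted p = 0.0612). Syt4, a member that acts on dense-core vesicles, stood at 0.39 ± 0.24 in the same libraries and was not called (edgeR adjusted p = 0.583).

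**Figure D4:**
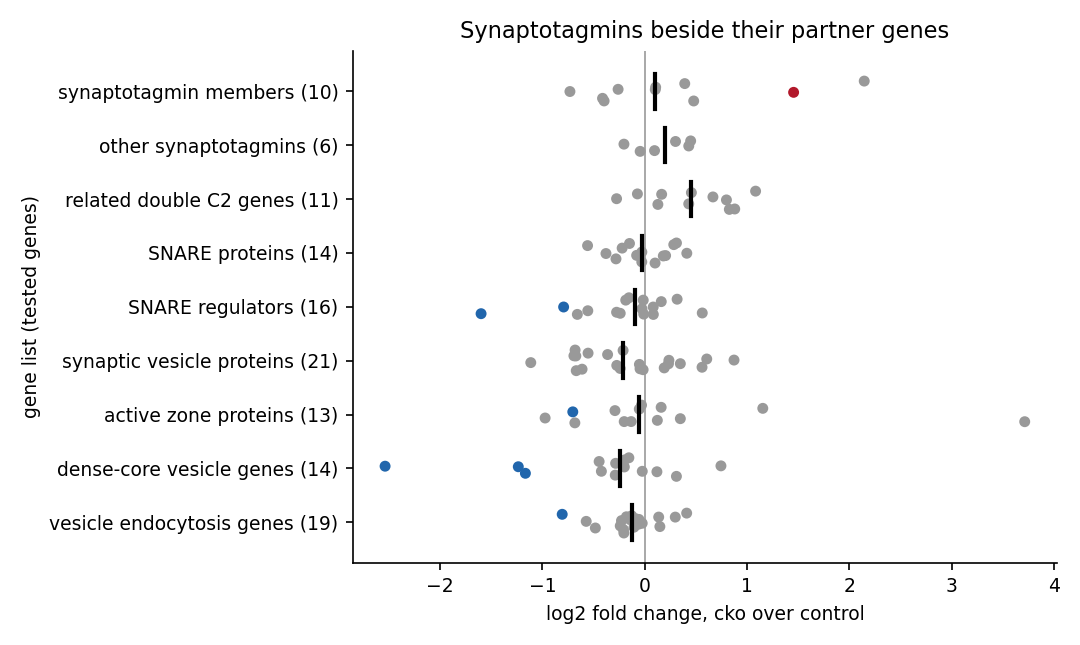
Log2 fold change (cko over control) of each tested gene in the lists of vesicle and release machinery, with called genes coloured (blue lower, red higher in cko) and the black bar at the list median. In the row of the 10 synaptotagmin members, Syt13 is called higher. The called genes of the other rows are 3 dense-core vesicle genes, 2 SNARE regulators, 1 active zone gene and 1 endocytosis gene, all lower in cko.

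Markers of other cell types were detected. Endothelial markers summed to 337 and 342 CPM in cko GCps and 254 and 217 CPM in control GCps. Of the 6, 0 were called by edgeR (6 higher with an unadjusted p under 0.05, 4 higher by DESeq2). Skeletal muscle markers summed to 25.7 and 52.8 CPM in cko GCps and 7.30 and 4.77 CPM in control GCps, and 3 of 6 were called higher by edgeR (Myh3, Tnnt3 and Ckm). All 6 were higher with an unadjusted p under 0.05, and DESeq2 called all 6 higher. Purkinje cell markers summed to 47.2 and 41.1 CPM in cko GCps and 33.6 and 31.7 CPM in control GCps. Itpr1, which is not limited to Purkinje cells, made up most of that sum. It had 43.1 and 36.3 CPM in cko GCps and 28.3 and 27.0 CPM in control GCps. Of the 4 tested Purkinje markers, Itpr1 (0.52) and Car8 (0.25) had a log2 fold change above 0, and Calb1 (-0.21) and Pcp4 (-0.34) below. By edgeR 0 of them were called (1 higher with an unadjusted p under 0.05, 1 higher by DESeq2). Skor2 was at 0 CPM in cko replicate 1 and control replicate 2. Oligodendrocyte lineage markers summed to 379 and 398 CPM in cko GCps and 353 and 318 CPM in control GCps, with all 6 above 0 and Olig2 called higher (1.21 ± 0.20, edgeR adjusted p = 0.0415). GABAergic interneuron markers summed to 100.0 and 106 CPM in cko GCps and 76.7 and 95.1 CPM in control GCps (6 of 6 above 0), and unipolar brush cell markers to 65.9 and 71.8 CPM in cko GCps and 53.3 and 54.7 CPM in control GCps (4 of 4 above 0), with 0 called in either list by edgeR or DESeq2 (1 and 2 with an unadjusted p under 0.05). Astroglia markers summed to 687 and 711 CPM in cko GCps and 825 and 894 CPM in control GCps, with 6 of 7 below 0. By edgeR 0 of them were called (3 lower with an unadjusted p under 0.05, 2 lower by DESeq2). Choroid plexus markers varied within each genotype, at 32.2 and 2.23 CPM in cko GCps and 19.3 and 3.73 CPM in control GCps. The part of these cell types in the values of the synaptotagmins was not tested.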

How the data were processed

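The authors deposited raw counts, 1 whole number for each Ensembl gene, for 2 cko and 2 control RNA-Seq libraries. Per the paper and the submitters' processing notes, reads were trimmed with Trim Galore 0.4.1, aligned to mm10 with TopHat2 2.0.14 and counted on Ensembl 75 with HTSeq 0.6.1p1 (intersection-strict, alignment quality under 3 skipped). No source used here says whether strand was used in counting. Reads shared with an overlapping gene can therefore not be assigned to one of them. ATAC-Seq and H3K4me1 samples were not analysed here.

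The 10 members and all gene lists were chosen with earlier results of these data known. Gene names came from GENCODE M21 for 37607 of the 38924 identifiers. Genotypes were compared in R 4.3.3 with edgeR 4.0.16 (filterByExpr, TMM, robust quasi-likelihood test, Benjamini-Hochberg adjustment over 16436 genes, threshold 0.05). Fold changes are cko over control. Per-length levels divide CPM by the union of exons. With 2 libraries a genotype, the smallest p of an exact permutation test is 0.333, so none was used. Coding sequences were translated and aligned with MAFFT 7.526. Alternatives were DESeq2 size factors in the same test, no filter, DESeq2 1.42.0, non-robust fitting, the replicate number as a block, each library left out, and the longest transcript. Named genes were all members, up to 4 called genes of each list by lowest adjusted p or else its most abundant gene, 2 tested neighbours on each side of a called member, and the 3 genes closest to Syt13 in pattern.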

Additional observations from a re-analysis of the deposited data

How the results depend on the processing

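The log2 fold change of Syt13 lay between 1.31 and 1.62 over 9 alternatives, on the counts known when it was chosen. The values of Syt1 (-1.04 to -0.46) and Syt9 (-0.63 to -0.21) were lowest without cko replicate 2 and highest without cko replicate 1. Members called higher numbered 2 without the filter on low counts (Syt13 and Syt17). Members called lower numbered 1 with DESeq2 (Syt1) and 0 to 2 with 1 library left out (Syt1 and Syt9 without cko replicate 2). Over all genes, 260 were called, 727 without the filter, 891 with DESeq2 and 83 to 602 with 1 library left out, 83 without control replicate 2 and 602 without cko replicate 2. With 1 library left out, the lone library of a genotype is assumed to vary like the other genotype's. Uncalled changes near 0 turned sign when a library was left out. The log2 fold change of Syt6 then ran between -0.18 (without cko replicate 1) and 0.33, of Syt7 between -0.024 (without cko replicate 2) and 0.23, of Sv2b between -0.12 and 0.027 (without control replicate 1), of Slc35c1 between -0.067 (without control replicate 2) and 0.12, and of Chst1 between -0.21 (without cko replicate 1) and 0.29. The cause of these moves was not tested.

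Same-numbered libraries of the 2 genotypes deviated from their genotype means with r = 0.19 across 16436 genes, which are not independent replicates, and with 2 pairs the numbers do not establish a pairing. With the replicate number as a block, 1010 genes were called, and 1 member (Syt1, -0.76) was called lower.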
